A study of Mus musculus with 18 samples.

Results

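Imprinted genes were followed as a group of 38 genes in mouse embryonic stem cells that had lost BAP1, carried an inactive BAP1, or lacked both BAP1 and RNF2. The 38 genes were named as a list and matched by mouse Entrez gene identifier, out of 36528 genes listed in each library. Of these members, 36 were among the 16875 genes with enough counts to be tested, while Rasgrf1 and Rtl1 were not. An imprinted gene is read mainly from the copy inherited from a single parent, because marks laid down in egg or sperm, mostly DNA methylation, differ between the copies. Most imprinted genes lie in clusters around such a marked control region, and many of them regulate the growth of the embryo and placenta. In embryonic stem cells the marks are kept by zinc finger proteins and DNA methyltransferases, and they are known to drift between lines and with time in culture. The counts here sum both parental copies, so which copy was read was not analysed here.

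BAP1 takes ubiquitin off histone H2A, and RNF2 is the ligase that puts it on. Polyadenylated RNA was sequenced as 18 libraries in 6 groups of 3. The tamoxifen metabolite 4-hydroxytamoxifen was given at 100 nM for 4 days to switch on Cre recombinase, and emricasan, a caspase inhibitor that blocks cell death, was given to all cells. The groups were the RNF2-BAP1 double knockout with the drug, the BAP1 knockout with the drug, its control without the drug (the untreated knockout line), the knock-in BAP1 C91A mutant with the drug, its control without the drug (the untreated C91A line), and wild type. C91A replaces the catalytic cysteine of BAP1. The sources used here do not state whether wild type cells were given the drug, and the double knockout has no untreated line among the groups. Effects of the drug and of Cre are thus part of each allele effect. The labels do not say whether the 3 libraries of a group came from separate cultures, so p-values measure only the spread between these libraries. The labels also give no replicate numbers, and those used below follow the order of the sample records within a group.

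Libraries held 8106613 to 23039407 counts, and levels below are CPM, a gene's counts as a share of the library total after scaling by its TMM factor. Bap1 stood at 139, 161 and 158 CPM in the double knockout, 151, 147 and 152 in the BAP1 knockout and 170.0, 167 and 169 in the untreated knockout line. In the C91A mutant Bap1 had 163, 166 and 166 CPM, the untreated C91A line 93.8, 84.8 and 88 and wild type 171, 183 and 182. Bap1 thus differed little after knockout (-0.17 on the log2 scale), and reads summed along the gene would still count a transcript with missing exons or an altered codon, so the check is partial. The low group for Bap1 was the untreated C91A line, at -1.01 against wild type on the log2 scale. The C91A mutant stood at 0.89 against that line, so each C91A effect is set against a control low in Bap1 RNA. Rnf2 was lowest in the double knockout, at 77.4, 75.6 and 70.6 CPM, against 114, 127 and 128 CPM in the BAP1 knockout. Of 9 embryonic stem cell markers, which include Pou5f1 and Nanog, all were above 1 CPM in every group, and their summed level was 4215 to 4437 CPM in the double knockout, 3373 to 3513 in the BAP1 knockout, 4369 to 4481 in the untreated knockout line, 2756 to 2829 in the C91A mutant, 3663 to 4053 in the untreated C91A line and 3704 to 3903 in wild type. Of 17 fibroblast markers, which would mark feeder cells, 3 to 8 were under 1 CPM in each group. Fap was at 0 in 4 groups and at most 0.110 CPM in the others, and Lum was at 0 or under 0.1 CPM in all groups. Mmp2 was the highest of the list in every library, at 47.3 to 50.9 CPM in the double knockout, 34.4 to 36.4 in the untreated knockout line and 54.4 to 61.2 in wild type. Col1a1 had 34.4 to 36.7, 10.5 to 11.6 and 15.1 to 15.9 CPM in the same groups. The fibroblast sum was 183 to 185 CPM in the double knockout, 127 to 132 in the BAP1 knockout, 83.7 to 86.9 in the untreated knockout line, 146 to 148 in the C91A mutant, 86.8 to 93.7 in the untreated C91A line and 133 to 138 in wild type. After knockout 1 of the 9 stem cell markers rose and 8 fell, and 7 of 15 tested fibroblast markers rose and 0 fell. In the C91A mutant 0 and 9 stem cell markers rose and fell, and 8 and 1 fibroblast markers. Of all genes tested, 31.3% rose and 30.3% fell after knockout, and 28.6% rose and 26.4% fell in the C91A mutant. The part of these cell type differences in the results was not tested. In bulk RNA, fewer cells that express a gene cannot be told apart from less RNA per cell.

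Levels of different members were compared per length with the authors' size-factor-adjusted RPKM. In wild type the order was led by Cd81 (197), a tetraspanin of the cell surface, H19 (107), a noncoding RNA, Phlda2 (102), a brake on placental growth, and Grb10 (92.8), an adaptor that dampens insulin signalling. Of the 38 members, 26 had at least 1 RPKM in the double knockout, 25 in the BAP1 knockout, 24 in the untreated knockout line, 28 in the C91A mutant, 25 in the untreated C91A line and 24 in wild type. The widest span between group means was that of Nnat, with 47.3 RPKM in the BAP1 knockout and 0.773 in wild type, a ratio of 61.2. The highest and lowest group means were 316 RPKM in the BAP1 knockout and 197 in wild type for Cd81, 36.6 RPKM in the BAP1 knockout and 15.8 in wild type for Impact, and 11.1 RPKM in the double knockout and 5.81 in wild type for Ndn. They were 11.3 RPKM in the BAP1 knockout and 7.07 in wild type for Trappc9, and 6.84 RPKM in the BAP1 knockout and 3.74 in wild type for Zrsr1. Further such means were 47.8 RPKM in the C91A mutant and 33.5 in wild type for Mest, 9.2 RPKM in the BAP1 knockout and 6.07 in the untreated C91A line for Ube3a, and 0.369 RPKM in the double knockout and 0.212 in the BAP1 knockout for Usp29. Over all 38 members, the lowest group mean was in the double knockout for 4, in the BAP1 knockout for 8, in the untreated knockout line for 7, in the untreated C91A line for 8 and in wild type for 11. The highest was in the BAP1 knockout for 14, the double knockout for 7 and the C91A mutant for 7. It was in wild type for 5, the untreated knockout line for 4 and the untreated C91A line for 1. These counts were not made over all genes. At the narrow end, Peg3 spanned a ratio of 1.33 and Igf2r 1.42. Rtl1 and Rasgrf1 stayed under 0.1 RPKM in every group.

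**Figure D1:**
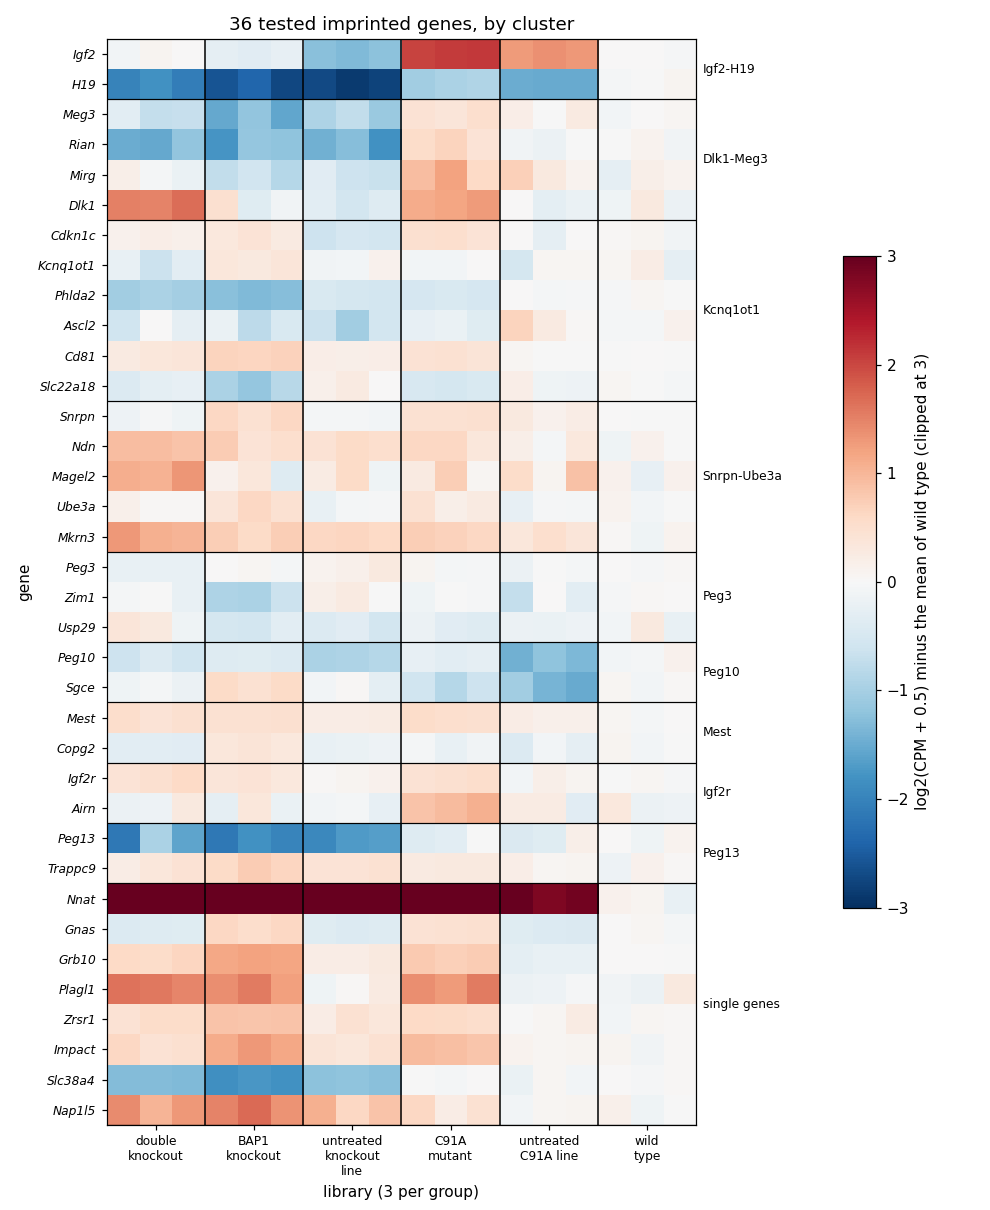
Each row is one of the 36 tested imprinted genes, ordered by cluster, each column one library, and the colour the log2(CPM + 0.5) minus the wild type mean, clipped at 3. Nnat is above wild type in all 15 other libraries, H19 is below it in all 15, and Rian, Slc38a4 and Peg13 are low in the 9 libraries of the double knockout, the BAP1 knockout and the untreated knockout line.

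Loss of BAP1 and its catalytic mutation were each followed by higher RNA of more of the tested members than lower RNA. The members were chosen with earlier results of these data known. Of 27 further imprinted genes tested, described below, 29.6% rose after knockout and 37.0% in the C91A mutant. After BAP1 knockout 21 of the 36 tested members rose (58.3%, against 31.3% of all genes tested) and 6 fell (16.7%, against 30.3%), while 9 did not pass the test. In the C91A mutant 23 rose (63.9%, against 28.6% of all genes) and 3 fell (8.33%, against 26.4%), with 10 not past the test. Calls in either direction took 61.6% of all genes after knockout and 55% in the C91A mutant. The median log2 fold change of the tested members was 0.31 after knockout and 0.41 in the C91A mutant, beside -0.01 for all genes in each comparison. Changes were mostly modest, with 4 members past 2-fold after knockout (15.3% of all genes) and 5 in the C91A mutant (11.1% of all genes). The knockout and C91A comparisons share no library. They had 18 risers in common, 85.7% of the 21 in the knockout and 78.3% of the 23 in the C91A mutant, and 2 genes that fell in both, Phlda2 and Slc22a18. This overlap was not counted over all genes, so it is not shown to be particular to the members. Meg3 fell after knockout and rose in the C91A mutant. By the copy usually read, 12 of 20 tested paternal members rose and 2 fell after knockout, beside 8 and 4 of 15 maternal members. The paternal members in the C91A mutant split into 12 higher and 0 lower, the maternal ones into 10 higher and 3 lower. Values given below with an SE, or alone in parentheses, are log2 fold changes of the group named over the one it is set against, unless another unit stands beside them. Calls rest on an adjusted p under 0.05 in edgeR's quasi-likelihood test, adjusted over all 16875 genes.

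**Figure D2:**
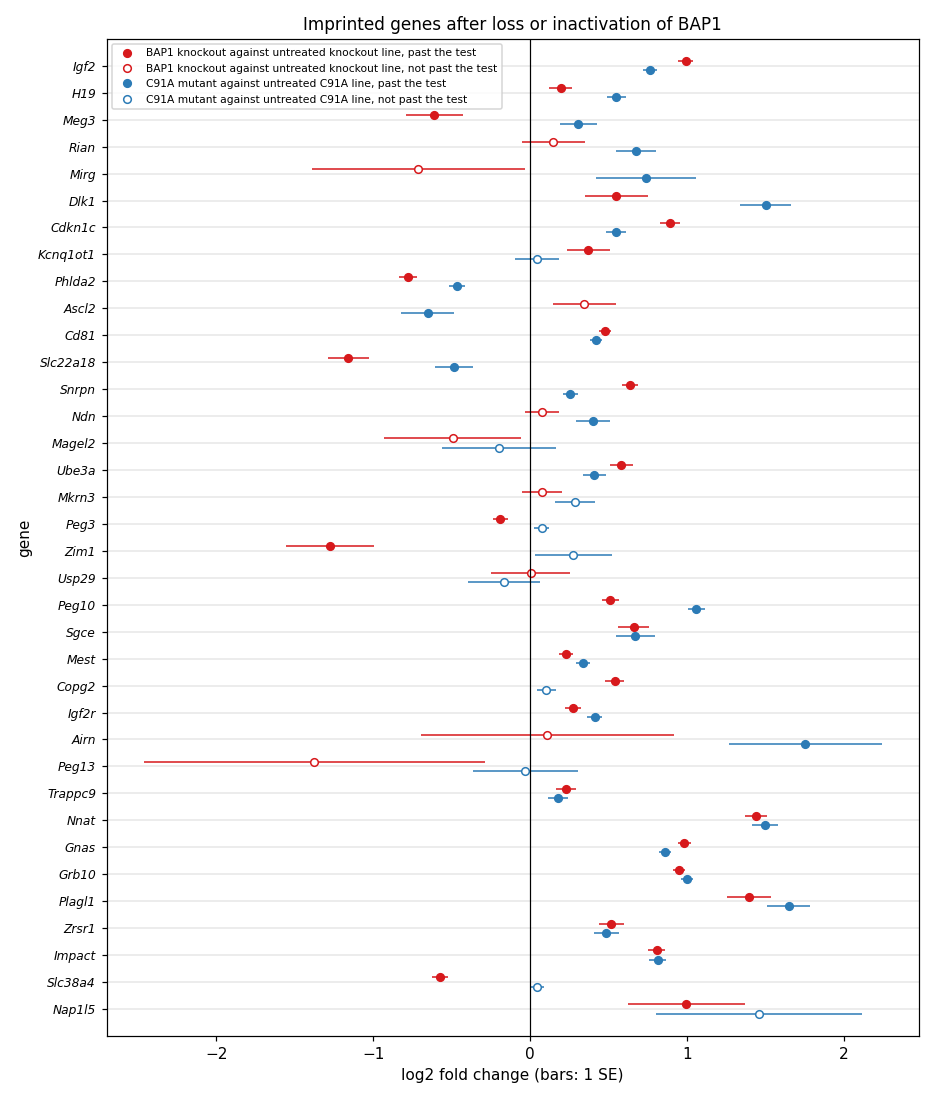
Log2 fold changes with 1 SE for the 36 tested imprinted genes, in the BAP1 knockout (red) and the C91A mutant (blue), each against its untreated line, with filled points past the test. Nnat and Plagl1 lie right of 1 for both alleles, Phlda2 and Slc22a18 left of 0 for both, and Zim1, Slc38a4 and Meg3 apart between them.

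Among the tested members, Nnat and Plagl1 had the largest rises shared by both alleles. Nnat encodes neuronatin, a small membrane protein of the endoplasmic reticulum, and lies within Blcap on the other strand, at chr2:157560078-157562525 (GRCm38). Its level was 47.5, 45.6 and 45.1 CPM in the double knockout, 69.9, 61.6 and 65.5 in the BAP1 knockout and 24.4, 24 and 24.5 in the untreated knockout line. Nnat measured 31.5, 31 and 33.8 CPM in the C91A mutant, 12.7, 10.5 and 11.3 in the untreated C91A line and 1.21, 1.17 and 0.858 in wild type. No group of Nnat overlapped another, and even the untreated lines stood far above wild type. Nnat rose with both alleles, both after knockout (log2 fold change 1.44, SE 0.07, adjusted p = 5e-21) and in the C91A mutant (log2 fold change 1.5, SE 0.08, adjusted p = 4.7e-19). The difference of the effects, -0.06 (SE 0.11), did not pass the test. Nnat was lower in the double knockout than in the BAP1 knockout (-0.52, SE 0.07), yet 5.41 (SE 0.12) above wild type, and the untreated knockout and C91A lines exceeded wild type by 4.49 (SE 0.13) and 3.4 (SE 0.14). The summed level of 7 neural markers was 314 to 329 CPM in the double knockout, 571 to 583 in the BAP1 knockout, 329 to 350 in the untreated knockout line, 445 to 461 in the C91A mutant, 295 to 326 in the untreated C91A line and 288 to 310 in wild type. None of the markers was under 1 CPM in any group, and Stmn2 made up most of each sum. The part of these markers in the levels of Nnat was not tested.

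Plagl1 encodes a zinc finger factor that restrains proliferation and binds other imprinted genes. It had 14.6, 14.2 and 13 CPM in the double knockout, 12.4, 13.9 and 11 in the BAP1 knockout and 4.0, 4.57 and 5.43 in the untreated knockout line. For Plagl1 the C91A mutant had 12.3, 11.3 and 13.9 CPM, the untreated C91A line 3.87, 3.91 and 4.3 and wild type 4.07, 3.84 and 5.48. All 9 libraries of the double knockout, the BAP1 knockout and the C91A mutant lay above the 9 others for Plagl1. Plagl1 rose after knockout (log2 fold change 1.4, SE 0.14, adjusted p = 1.5e-11) and in the C91A mutant (log2 fold change 1.65, SE 0.14, adjusted p = 2.4e-13). Between double knockout and BAP1 knockout Plagl1 differed by 0.18 (SE 0.12), which did not pass the test, and the double knockout stood 1.63 (SE 0.13) above wild type.

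Grb10 and Gnas rose almost 2-fold with both alleles and were lower in the double knockout than in the BAP1 knockout. Grb10, read from the maternal copy in most tissues, averaged 768 ± 28.1 CPM in the double knockout, 1154 ± 18.7 in the BAP1 knockout and 599 ± 15.1 in the untreated knockout line (SD, n = 3). It averaged 854 ± 17 CPM in the C91A mutant, 428 ± 11.3 in the untreated C91A line and 506 ± 4.28 in wild type. Its changes were 0.95 (SE 0.04) after knockout, 1.0 (SE 0.04) in the C91A mutant and -0.59 (SE 0.04) in the double knockout against the BAP1 knockout. Gnas encodes the stimulatory G protein alpha subunit from both copies in most tissues, and further transcripts from one copy only. Gnas averaged 450.3 ± 7.38 CPM in the double knockout, 889 ± 38.5 in the BAP1 knockout and 451 ± 8.04 in the untreated knockout line. The C91A mutant averaged 811 ± 19.5 CPM of Gnas, the untreated C91A line 447 ± 10.3 and wild type 591 ± 26.3. Gnas rose by 0.98 (SE 0.04) after knockout and 0.86 (SE 0.04) in the C91A mutant, and was -0.98 (SE 0.04) in the double knockout against the BAP1 knockout. All libraries of the double knockout and of both untreated lines lay between 439.7 and 459 CPM for Gnas, below the 3 wild type libraries.

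The start regions of genes that rose with both alleles (Nnat, Plagl1 and Grb10) and of those that fell with both (Phlda2 and Slc22a18) are shown because these genes moved together. Each runs from 250 bases before to 50 after a RefSeq start, on GRCm38.p6, 5′ to 3′, with every CG dinucleotide, at which imprints are methylated, in capitals.
Nnat: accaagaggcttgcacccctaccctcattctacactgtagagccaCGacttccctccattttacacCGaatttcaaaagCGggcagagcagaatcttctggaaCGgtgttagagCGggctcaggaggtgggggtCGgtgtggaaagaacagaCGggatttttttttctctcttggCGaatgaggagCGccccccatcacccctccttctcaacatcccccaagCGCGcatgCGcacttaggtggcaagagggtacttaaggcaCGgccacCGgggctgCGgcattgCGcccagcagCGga
Plagl1: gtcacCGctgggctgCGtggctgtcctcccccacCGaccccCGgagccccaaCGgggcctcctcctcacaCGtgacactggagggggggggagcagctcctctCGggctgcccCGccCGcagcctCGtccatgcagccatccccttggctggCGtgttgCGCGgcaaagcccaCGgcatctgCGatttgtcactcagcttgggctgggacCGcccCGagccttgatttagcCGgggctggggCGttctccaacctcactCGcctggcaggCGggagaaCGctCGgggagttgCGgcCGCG
Grb10: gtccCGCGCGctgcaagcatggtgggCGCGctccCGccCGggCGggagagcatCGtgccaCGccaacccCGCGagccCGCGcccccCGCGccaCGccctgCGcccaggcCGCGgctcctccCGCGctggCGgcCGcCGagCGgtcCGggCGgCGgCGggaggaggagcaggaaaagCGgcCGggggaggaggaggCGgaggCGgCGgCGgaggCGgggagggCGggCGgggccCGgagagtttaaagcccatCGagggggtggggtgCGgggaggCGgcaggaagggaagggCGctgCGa
Phlda2: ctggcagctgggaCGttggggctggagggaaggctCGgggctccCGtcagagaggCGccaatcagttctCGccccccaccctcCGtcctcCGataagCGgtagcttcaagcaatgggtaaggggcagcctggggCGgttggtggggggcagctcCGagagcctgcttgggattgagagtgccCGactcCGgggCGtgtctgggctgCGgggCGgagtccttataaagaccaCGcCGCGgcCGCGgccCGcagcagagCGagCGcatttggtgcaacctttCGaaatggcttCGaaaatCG
Slc22a18: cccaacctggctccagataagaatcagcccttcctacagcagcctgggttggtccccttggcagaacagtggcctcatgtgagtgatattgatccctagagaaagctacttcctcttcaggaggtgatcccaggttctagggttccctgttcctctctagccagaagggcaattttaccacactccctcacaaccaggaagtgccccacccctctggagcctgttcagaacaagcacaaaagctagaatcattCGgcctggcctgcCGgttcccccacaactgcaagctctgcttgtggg
They lie at chr2:157559828-157560127 (plus strand), chr10:13090582-13090881 (plus strand), chr11:12037371-12037670 (minus strand, the first of 2 listed starts of Grb10), chr7:143502475-143502774 (minus strand) and chr7:143473539-143473838 (plus strand). The Nnat window holds 17 CG, and 31.4% of all 32851 windows in the RefSeq table hold at least as many. Plagl1 and Phlda2 each hold 26 (16.9% of all windows), Grb10 45 (1.93%) and Slc22a18 2 (85.9%). The hexamer TGCCGC, or GCGGCA on the other strand, contains a CG and is known as the binding motif of ZFP57, a keeper of imprints. It occurs once each in the shown windows of Nnat, Plagl1 and Grb10 and in neither Phlda2 nor Slc22a18, and the second Grb10 window, with 9 CG, holds none. The 5 shown do not stand for the rest: of the 18 members that rose with both alleles, 12 are in the table, and the hexamer is in a window of 6 of them (Grb10, Igf2, Mest, Nnat, Plagl1 and Snrpn) and of none of the other 6 (Cd81, Dlk1, Gnas, Igf2r, Ube3a and Zrsr1). Over the 30 members found in the table, 11 of 45 windows hold it (24.4%, in 10 members), beside 11.6% of all windows, and the median CG number is 13 beside 7. A match is a run of letters only.

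**Figure D3:**
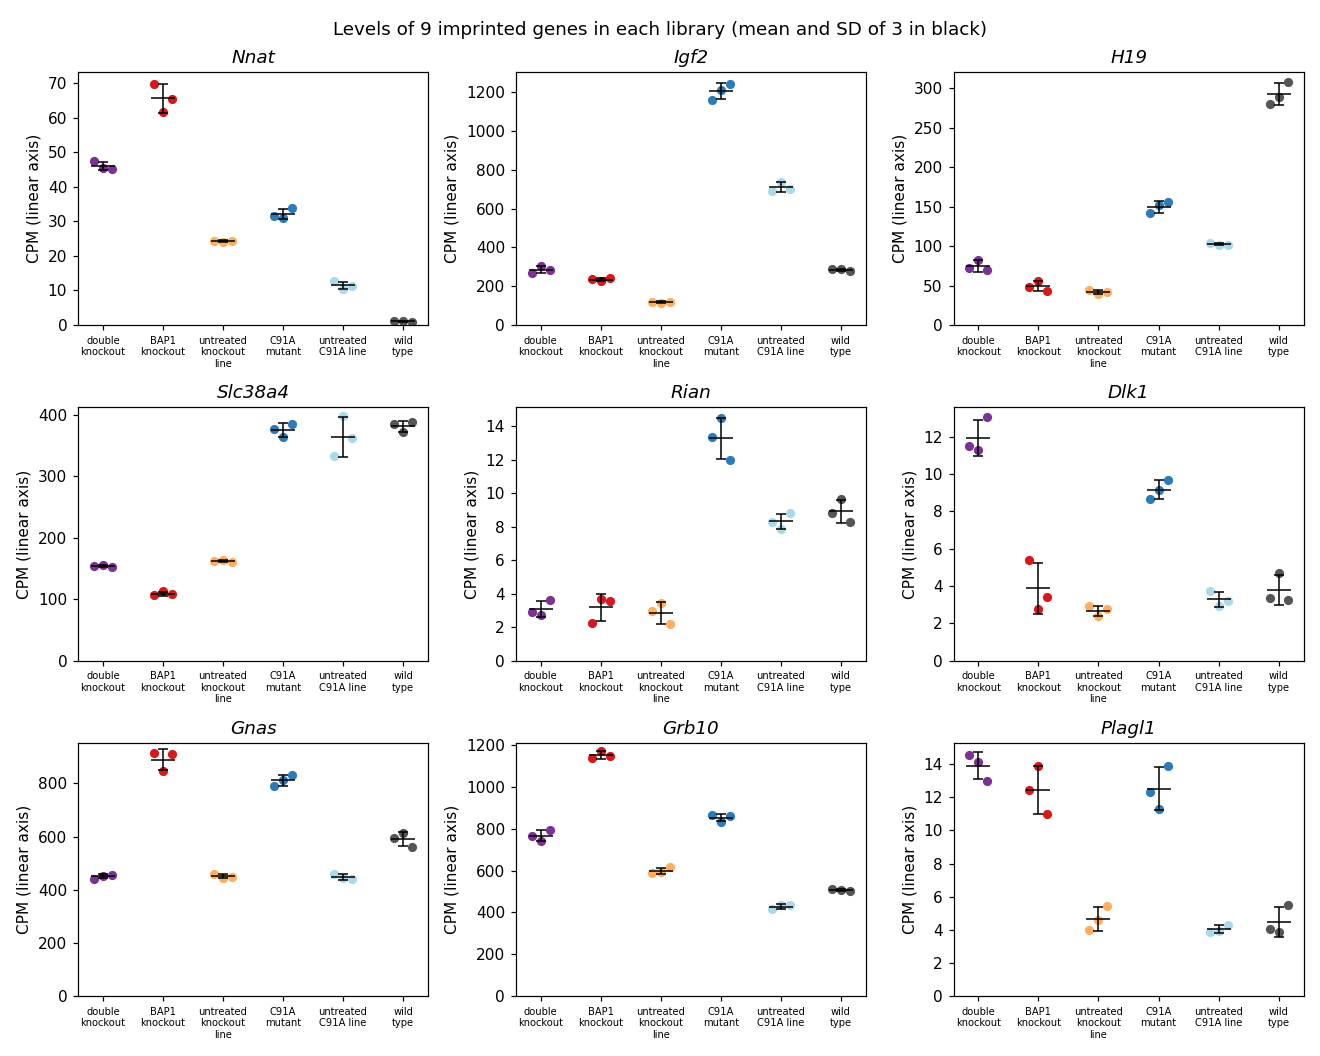
CPM on linear axes in each of the 18 libraries for 9 imprinted genes, with the mean and SD of 3 libraries in black. Plagl1 is high in the double knockout, the BAP1 knockout and the C91A mutant, Gnas is high in the BAP1 knockout and the C91A mutant but between 442 and 456 CPM in the double knockout, and Slc38a4, Rian and H19 are low in the double knockout, the BAP1 knockout and the untreated knockout line.

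The Igf2 and H19 pair, neighbours on chromosome 7 that share enhancers and are read from opposite parental copies, differed more between lines than after the drug. Igf2, a fetal growth factor, had 268, 303 and 285 CPM in the double knockout, 236, 226 and 240.0 in the BAP1 knockout and 119.7, 114 and 120.4 in the untreated knockout line. Igf2 had 1161, 1213 and 1244 CPM in the C91A mutant, 693, 739 and 699 in the untreated C91A line and 287, 289 and 278 in wild type. Only the double knockout and wild type overlapped for Igf2. Igf2 rose after knockout (log2 fold change 0.99, SE 0.05, adjusted p = 1.4e-21) and in the C91A mutant (log2 fold change 0.76, SE 0.04, adjusted p = 4.9e-19), by more in the knockout (difference 0.23, SE 0.06). Against wild type the untreated lines went opposite ways, -1.27 (SE 0.05) for the knockout line and 1.32 (SE 0.04) for the C91A line. Summed over 10 primitive endoderm markers, the level was 587 to 632 CPM in the double knockout, 309 to 335 in the BAP1 knockout, 189 to 203 in the untreated knockout line, 894 to 925 in the C91A mutant, 497 to 535 in the untreated C91A line and 673 to 691 in wild type, with 0 to 3 markers under 1 CPM in a group. Col4a1 and Lama1 made up most of each sum. Col4a1 had 743 to 780 CPM in the C91A mutant and 333 to 356 in the untreated C91A line. Lama1 had 106 to 112 and 137 to 152 in the same groups. After knockout 7 of the 10 rose and 0 fell (31.3% and 30.3% of all genes). In the C91A mutant 4 rose and 2 fell (28.6% and 26.4% of all genes). The part of these markers in the levels of Igf2 was not tested.

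H19, a noncoding RNA that hosts a microRNA, had 71.9, 82.9 and 69.4 CPM in the double knockout, 48, 55.8 and 43.4 in the BAP1 knockout and 44.4, 39.7 and 42.2 in the untreated knockout line. CPM of H19 were 141, 152 and 156 in the C91A mutant, 105, 102 and 101 in the untreated C91A line and 280.2, 289 and 307 in wild type. Wild type was far above every other group, and the BAP1 knockout overlapped its untreated line. Against wild type the untreated knockout line stood at -2.79 (SE 0.06) and the untreated C91A line at -1.51 (SE 0.06) on the log2 scale, and the knockout line was -1.28 (SE 0.06) against the C91A line. H19 rose in the C91A mutant (log2 fold change 0.55, SE 0.06, adjusted p = 2e-10) and in the double knockout against the BAP1 knockout (0.63, SE 0.07). The small rise after knockout (0.19, SE 0.07, adjusted p = 0.019) lost its call without replicate 2 of the untreated knockout line (0.15) or replicate 2 of the BAP1 knockout (0.11).

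Igf2r encodes the receptor that clears IGF2 and is overlapped on the other strand by Airn, the noncoding RNA known to silence its paternal copy. Igf2r averaged 303 ± 18.7 CPM in the double knockout, 274 ± 8.55 in the BAP1 knockout and 227 ± 7.89 in the untreated knockout line. Its C91A mutant mean was 298 ± 9.5 CPM, that of the untreated C91A line 224 ± 19.4 and that of wild type 214 ± 7.78. Igf2r rose by 0.27 (SE 0.05) after knockout and 0.41 (SE 0.05) in the C91A mutant, and neither untreated line passed the test against wild type. Airn had few reads, with 13 counts summed over the double knockout, 6 over the BAP1 knockout, 10 over the untreated knockout line, 42 over the C91A mutant, 14 over the untreated C91A line and 13 over wild type. The level of Airn was 0.131, 0.144 and 0.368 CPM in the double knockout, 0.0900, 0.396 and 0.120 in the BAP1 knockout and 0.176, 0.187 and 0.105 in the untreated knockout line. Airn had 0.780, 0.887 and 0.986 CPM in the C91A mutant, 0.339, 0.340 and 0.0651 in the untreated C91A line and 0.385, 0.135 and 0.143 in wild type. Airn stood apart in the C91A mutant alone, whose libraries were all above the other 15 (log2 fold change 1.75, SE 0.49, adjusted p = 0.0023). After knockout its value was 0.11 (SE 0.8), and the difference between alleles, -1.64 (SE 0.95), did not pass the test. No source used here says if reads were counted by strand, so such overlapping pairs may share reads.

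In the Dlk1-Meg3 cluster of chromosome 12 the maternally read noncoding RNAs Meg3 and Rian were low in the double knockout, the BAP1 knockout and the untreated knockout line. Meg3, a long noncoding RNA, had 6.93, 5.13 and 5.23 CPM in the double knockout, 2.7, 3.57 and 2.65 in the BAP1 knockout and 4.35, 5.04 and 3.75 in the untreated knockout line. Values of Meg3 were 11.8, 11.3 and 12.6 CPM in the C91A mutant, 10.04, 8.59 and 10.6 in the untreated C91A line and 8.25, 8.85 and 9.05 in wild type. All 9 libraries of the double knockout, the BAP1 knockout and the untreated knockout line lay below the 9 others. Meg3 fell after knockout (log2 fold change -0.61, SE 0.18, adjusted p = 0.0038) and was 0.99 (SE 0.18) higher in the double knockout than in the BAP1 knockout. The effect of the knockout differed from that of the C91A mutant by -0.92 (SE 0.22). The rise in the C91A mutant (0.31, SE 0.12, adjusted p = 0.029) did not pass in DESeq2 (0.3), without replicate 2 of the untreated C91A line (0.21) or without replicate 3 of the C91A mutant (0.25).

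Rian, a host of small nucleolar RNAs and microRNAs, had 2.88, 2.74 and 3.64 CPM in the double knockout, 2.25, 3.7 and 3.55 in the BAP1 knockout and 2.95, 3.41 and 2.16 in the untreated knockout line. Rian measured 13.3, 14.5 and 12 CPM in the C91A mutant, 8.27, 7.86 and 8.79 in the untreated C91A line and 8.8, 9.66 and 8.29 in wild type. The first 3 of these groups overlapped one another and lay wholly below the last 3. Against wild type the untreated knockout line stood at -1.64 (SE 0.15) and the untreated C91A line at -0.11 (SE 0.13), the second not past the test. Rian rose in the C91A mutant (log2 fold change 0.68, SE 0.13, adjusted p = 2e-05) and was at 0.15 (SE 0.2) after knockout. Mirg, a microRNA host, had 0.785, 0.578 and 0.490 CPM in the double knockout, 0.180, 0.264 and 0.120 in the BAP1 knockout and 0.396, 0.233 and 0.211 in the untreated knockout line. For Mirg the C91A mutant had 1.63, 2.11 and 1.21 CPM, the untreated C91A line 1.36, 0.893 and 0.716 and wild type 0.440, 0.767 and 0.715. Its levels were low, with as few as 6 counts summed over the BAP1 knockout, and the highest mean was in the C91A mutant, while the double knockout overlapped wild type (-0.11, SE 0.39). Mirg was higher in the double knockout than in the BAP1 knockout (1.77, SE 0.6, adjusted p = 0.0097), a call lost without replicate 3 of the BAP1 knockout (1.46). Its rise in the C91A mutant (0.74, SE 0.32, adjusted p = 0.048) was not past the test in DESeq2, in either other scaling, when low counts were kept, and without any 1 of 15 libraries, at 0.52 to 0.74 over these fits.

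Dlk1, a membrane-bound growth regulator related to Notch ligands and read from the paternal copy, followed another pattern. Its level was 11.5, 11.3 and 13 CPM in the double knockout, 5.4, 2.77 and 3.43 in the BAP1 knockout and 2.9, 2.38 and 2.74 in the untreated knockout line. Dlk1 had 8.65, 9.14 and 9.7 CPM in the C91A mutant, 3.73, 2.93 and 3.19 in the untreated C91A line and 3.35, 4.69 and 3.24 in wild type. The double knockout was highest, the C91A mutant next, and the other 4 groups lay below both. Dlk1 rose in the C91A mutant (log2 fold change 1.5, SE 0.16, adjusted p = 2.2e-10), and in the double knockout against the BAP1 knockout (log2 fold change 1.62, SE 0.17, adjusted p = 2.8e-11) or with wild type as the comparison (1.66, SE 0.15). Its rise after knockout, 0.55 (SE 0.2), was smaller than in the C91A mutant (difference -0.95, SE 0.26) and was not past the test without replicate 1 of the BAP1 knockout (0.26) or replicate 2 of the untreated knockout line (0.47). Rtl1, a retrotransposon-derived gene of the cluster that lies antisense to small RNA genes, had 0 to 0.262 CPM and was not tested.

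The Kcnq1ot1 cluster on chromosome 7 held both genes that fell with each allele. Phlda2 had 55.8, 59.7 and 56.5 CPM in the double knockout, 48.3, 45.7 and 47.4 in the BAP1 knockout and 83.9, 80.02 and 79.1 in the untreated knockout line. CPM of Phlda2 were 80.9, 84.1 and 81 in the C91A mutant, 117, 111 and 113 in the untreated C91A line and 112, 120.0 and 114 in wild type. The BAP1 knockout was lowest, and each allele lay wholly below its untreated line. Phlda2 fell after knockout (log2 fold change -0.78, SE 0.05, adjusted p = 7.6e-16) and less in the C91A mutant (log2 fold change -0.47, SE 0.05, adjusted p = 1.1e-10, difference -0.31, SE 0.07). It was 0.28 (SE 0.06) higher in the double knockout than in the BAP1 knockout but -1.01 (SE 0.05) against wild type. Slc22a18, a transporter-like gene between Cdkn1c and Phlda2, had 7.65, 8.3 and 8.66 CPM in the double knockout, 5.13, 4.36 and 5.6 in the BAP1 knockout and 11.6, 12.5 and 10.4 in the untreated knockout line. Values of Slc22a18 were 7.24, 6.96 and 7.45 CPM in the C91A mutant, 11.9, 9.4 and 9.31 in the untreated C91A line and 10.8, 10.2 and 9.96 in wild type. The 3 BAP1 knockout libraries were the lowest, and the untreated lines overlapped wild type. Slc22a18 fell with both alleles, at -1.16 (SE 0.13) after knockout and -0.49 (SE 0.12) in the C91A mutant, with a difference of -0.67 (SE 0.18).

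Ascl2, a factor of the placental trophoblast, had 3.86, 6.14 and 4.94 CPM in the double knockout, 5.22, 3.3 and 4.27 in the BAP1 knockout and 3.69, 2.66 and 3.96 in the untreated knockout line. Ascl2 measured 5.04, 5.25 and 4.6 CPM in the C91A mutant, 9.9, 7.4 and 6.19 in the untreated C91A line and 5.77, 5.82 and 6.62 in wild type. The untreated C91A line held the highest values and the untreated knockout line the lowest. Ascl2 fell in the C91A mutant (log2 fold change -0.65, SE 0.17, adjusted p = 0.001), stood at 0.34 (SE 0.2) after knockout and differed between the alleles by 1.0 (SE 0.26). Over 8 trophoblast markers the summed level was 294 to 361 CPM in the double knockout, 418 to 424 in the BAP1 knockout, 275 to 295 in the untreated knockout line, 1191 to 1301 in the C91A mutant, 624 to 652 in the untreated C91A line and 434 to 459 in wild type, with 1 or 2 under 1 CPM in a group and Elf5 at 0 in the BAP1 knockout. Krt8 and Krt18 made up most of each sum. Krt18 had 835 to 919 CPM in the C91A mutant and 357 to 383 in the untreated C91A line. Eomes had 2.14 to 3.14 and 6.12 to 6.42 in the same groups. In the C91A mutant 3 of the 8 rose and 3 fell (28.6% and 26.4% of all genes). After knockout 3 rose and 4 fell (31.3% and 30.3% of all genes). The part of these markers in the levels of Ascl2 was not tested.

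Other genes of the cluster rose. Cdkn1c, the p57 inhibitor of cyclin-dependent kinases, averaged 75.3 ± 2.06 CPM in the double knockout, 84.8 ± 4.22 in the BAP1 knockout and 45.6 ± 2.16 in the untreated knockout line. Its mean was 93.1 ± 2.79 CPM in the C91A mutant, 64.1 ± 7.08 in the untreated C91A line and 67.3 ± 4.65 in wild type. Cdkn1c rose by 0.89 (SE 0.07) after knockout, more than the 0.55 (SE 0.06) of the C91A mutant (difference 0.34, SE 0.09). Cd81 rose by 0.48 (SE 0.04) after knockout and 0.42 (SE 0.04) in the C91A mutant, and was -0.34 (SE 0.04) in the double knockout against the BAP1 knockout. Kcnq1ot1, the paternally read noncoding RNA that represses the cluster in cis and lies inside Kcnq1 on the other strand, averaged 6.85 ± 1.08 CPM in the double knockout, 11.5 ± 0.316 in the BAP1 knockout and 8.94 ± 0.854 in the untreated knockout line. The C91A mutant averaged 8.71 ± 0.332 CPM, the untreated C91A line 8.34 ± 1.94 and wild type 9.1 ± 1.56. It was -0.74 (SE 0.15) in the double knockout against the BAP1 knockout and 0.05 (SE 0.14) in the C91A mutant. The rise of Kcnq1ot1 after knockout, 0.37 (SE 0.14), lost its call without replicate 1 (0.32) or 2 (0.34) of the untreated knockout line or replicate 3 of the BAP1 knockout (0.35).

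Peg10 and Sgce start next to each other on opposite strands of chromosome 6, and both were reduced in the untreated C91A line. Peg10, a retrotransposon-derived gene needed for the placenta, had 330.0, 379 and 338 CPM in the double knockout, 387, 393 and 381 in the BAP1 knockout and 265, 268 and 282 in the untreated knockout line. For Peg10 the C91A mutant had 429, 407 and 424 CPM, the untreated C91A line 187, 219 and 198 and wild type 482, 491 and 554. No 2 groups of Peg10 overlapped, and wild type was highest. Sgce, encoding epsilon-sarcoglycan of the cell membrane, had 15, 15.9 and 14.6 CPM in the double knockout, 24.9, 22.7 and 25 in the BAP1 knockout and 15.7, 17.1 and 13.4 in the untreated knockout line. Sgce had 10.7, 8.87 and 10.6 CPM in the C91A mutant, 7.73, 5.95 and 5.47 in the untreated C91A line and 17.3, 15.5 and 16.9 in wild type. Here the BAP1 knockout was highest and the untreated C91A line lowest, while the double knockout, the untreated knockout line and wild type overlapped. Against wild type the untreated C91A line stood at -1.34 (SE 0.05) for Peg10 and -1.38 (SE 0.11) for Sgce, the untreated knockout line at -0.91 (SE 0.05) for Peg10 and -0.1 (SE 0.1) for Sgce. Peg10 rose by 0.51 (SE 0.05) after knockout and by 1.06 (SE 0.05) in the C91A mutant (difference -0.55, SE 0.07). Sgce rose by 0.66 (SE 0.1) after knockout and 0.67 (SE 0.13) in the C91A mutant.

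Mest, an alpha-beta hydrolase, and Copg2, a subunit of the COPI vesicle coat, overlap at their ends on opposite strands. Mest rose by 0.23 (SE 0.05) after knockout and 0.34 (SE 0.05) in the C91A mutant, and averaged 97.8 ± 4.17 CPM in wild type. Copg2 rose by 0.54 (SE 0.06) after knockout, stood at 0.1 (SE 0.06) in the C91A mutant, a difference of 0.44 (SE 0.09), and was -0.68 (SE 0.06) in the double knockout against the BAP1 knockout. In the Peg3 cluster the zinc finger gene Peg3 varied least of all members in RPKM, averaging 231 ± 1.52 CPM in the double knockout, 269 ± 12.8 in the BAP1 knockout and 307 ± 21.2 in the untreated knockout line. Peg3 fell after knockout (-0.19, SE 0.05) and stood at 0.07 (SE 0.05) in the C91A mutant. Zim1, a neighbouring zinc finger gene read from the maternal copy, had 1.9, 1.95 and 1.63 CPM in the double knockout, 0.810, 0.793 and 1.08 in the BAP1 knockout and 2.29, 2.52 and 1.95 in the untreated knockout line. CPM of Zim1 were 1.77, 1.98 and 1.92 in the C91A mutant, 1.02, 2.0 and 1.5 in the untreated C91A line and 1.92, 2.03 and 2.0 in wild type. The BAP1 knockout was low, overlapping only with replicate 1 of the untreated C91A line. Zim1 fell after knockout (log2 fold change -1.27, SE 0.28, adjusted p = 0.00015), stood at 0.28 (SE 0.25) in the C91A mutant, and had the largest difference between alleles among the members past that test (log2 fold change -1.55, SE 0.38, adjusted p = 0.0019). Usp29, a ubiquitin protease gene, passed neither test, at 0.00 (SE 0.25) after knockout and -0.16 (SE 0.23) in the C91A mutant, and was 0.73 (SE 0.24) higher in the double knockout than in the BAP1 knockout.

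The Snrpn-Ube3a cluster of chromosome 7, whose human counterpart is known from Prader-Willi and Angelman syndromes, split by gene. Snrpn, a splicing protein gene, averaged 119 ± 5.53 CPM in the double knockout, 190.1 ± 12.5 in the BAP1 knockout and 123 ± 1.58 in the untreated knockout line. Its mean was 177 ± 0.935 CPM in the C91A mutant, 148 ± 8.54 in the untreated C91A line and 128 ± 0.954 in wild type. Snrpn rose by 0.64 (SE 0.05) after knockout and less, by 0.26 (SE 0.05), in the C91A mutant (difference 0.38, SE 0.07). Ube3a, a ubiquitin ligase overlapped by the antisense RNA Snhg14, rose by 0.58 (SE 0.07) after knockout and 0.41 (SE 0.07) in the C91A mutant. Both were lower in the double knockout than in the BAP1 knockout, at -0.68 (SE 0.05) for Snrpn and -0.41 (SE 0.07) for Ube3a. Ndn, a MAGE family gene, rose in the C91A mutant (0.4, SE 0.11), stood at 0.08 (SE 0.11) after knockout and was 0.92 (SE 0.1) above wild type in the double knockout.

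Magel2 and Mkrn3 were highest in the double knockout. Magel2, a MAGE family partner of ubiquitin ligases, had 1.9, 1.81 and 2.29 CPM in the double knockout, 0.720, 0.925 and 0.361 in the BAP1 knockout and 0.835, 1.17 and 0.527 in the untreated knockout line. Values of Magel2 were 0.851, 1.36 and 0.657 CPM in the C91A mutant, 1.15, 0.680 and 1.56 in the untreated C91A line and 0.715, 0.451 and 0.715 in wild type. The double knockout lay above all 15 other libraries, which overlapped one another. Mkrn3, a RING finger gene, had 11.7, 9.89 and 9.52 CPM in the double knockout, 7.74, 6.87 and 7.76 in the BAP1 knockout and 7.16, 7.33 and 6.96 in the untreated knockout line. Mkrn3 measured 7.73, 7.57 and 7.12 CPM in the C91A mutant, 5.83, 6.5 and 5.86 in the untreated C91A line and 4.56, 4.06 and 4.81 in wild type. Again the double knockout was highest, and wild type was below all other groups. Magel2 was higher in the double knockout than in the BAP1 knockout (log2 fold change 1.74, SE 0.39, adjusted p = 0.00015) and wild type (1.7, SE 0.33), and Mkrn3 was higher than in both as well, by 0.45 (SE 0.12) and 1.2 (SE 0.12). Neither gene passed the test in the knockout or the C91A comparison.

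Slc38a4, a transporter of neutral amino acids on chromosome 15, fell after knockout and was already low in the untreated knockout line. It had 154, 156 and 152 CPM in the double knockout, 106, 113 and 108 in the BAP1 knockout and 162, 164 and 160.0 in the untreated knockout line. For Slc38a4 the C91A mutant had 377, 363 and 386 CPM, the untreated C91A line 333, 398 and 362 and wild type 384, 371 and 388. The first 3 groups were all below 165 CPM and did not overlap, and the last 3 were all above 330 CPM and did. Slc38a4 fell after knockout (log2 fold change -0.57, SE 0.05, adjusted p = 5.8e-13), stood at 0.04 (SE 0.05) in the C91A mutant, and was -1.23 (SE 0.05) in the untreated knockout line against wild type.

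Peg13, a noncoding RNA inside Trappc9 on the same strand, shared this division of the groups. It had 0, 0.650 and 0.245 CPM in the double knockout, 0, 0.132 and 0.0602 in the BAP1 knockout and 0.0879, 0.187 and 0.211 in the untreated knockout line, or 15, 2 and 10 counts over the 3 libraries of each. Peg13 had 1.21, 1.3 and 1.7 CPM in the C91A mutant, 1.15, 1.23 and 2.02 in the untreated C91A line and 1.76, 1.53 and 1.91 in wild type. All 9 libraries of the double knockout, the BAP1 knockout and the untreated knockout line lay below the 9 others. Peg13 was -3.39 (SE 0.46) in the untreated knockout line and -2.59 (SE 0.43) in the double knockout against wild type, the second -3.47 without replicate 2 of the double knockout. Its host gene Trappc9, which encodes a subunit of a vesicle tethering complex, rose slightly after knockout (0.23, SE 0.06) and in the C91A mutant (0.18, SE 0.06). That last call was lost without replicate 2 (0.15) or 3 (0.17) of the untreated C91A line or replicate 3 of the C91A mutant (0.16).

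Nap1l5, a nucleosome assembly protein-like gene inside Herc3 on the other strand, was scarce but graded. It had 1.11, 0.722 and 0.981 CPM in the double knockout, 1.17, 1.45 and 1.02 in the BAP1 knockout and 0.747, 0.420 and 0.580 in the untreated knockout line. CPM of Nap1l5 were 0.426, 0.205 and 0.329 in the C91A mutant, 0.0678, 0.128 and 0.130 in the untreated C91A line and 0.165, 0.0451 and 0.0953 in wild type. Only 6 counts in the untreated C91A line and 6 in wild type lay behind the low values. The untreated knockout line stood 2.49 (SE 0.54) above wild type and the double knockout 3.18 (SE 0.51). The rise of Nap1l5 after knockout, 1.0 (SE 0.37), was no longer past the test in DESeq2 (1.03), when low counts were not filtered (0.98), or without replicate 2 of the untreated knockout line (0.81) or of the BAP1 knockout (0.89).

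Impact, an inhibitor of the amino acid sensing kinase GCN2, rose with both alleles, by 0.81 (SE 0.05) after knockout and 0.81 (SE 0.06) in the C91A mutant. It averaged 121 ± 8.28 CPM in the double knockout, 195 ± 13.9 in the BAP1 knockout and 111 ± 4.63 in the untreated knockout line. Zrsr1, a splicing factor gene inside Commd1, rose by 0.52 (SE 0.08) and 0.49 (SE 0.08) in the 2 comparisons. Rasgrf1, a Ras exchange factor, was read at 0.286 to 0.361 CPM in the double knockout, 0.180 to 0.529 CPM in the BAP1 knockout and 0.105 to 0.140 in the untreated knockout line, at 0.273 to 0.497 CPM in the C91A mutant, 0.0425 to 0.195 in the untreated C91A line and 0.143 to 0.181 in wild type, and was not tested.

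The 2 alleles were then compared directly, as the knockout effect minus the C91A effect. This difference passed the test for 14 of 36 members (38.9%, against 25.9% of all genes), 5 of them with a positive and 9 with a negative value. Zim1, Dlk1, Meg3, Slc22a18, Slc38a4, Peg10, H19, Phlda2 and Peg3 had the lower value in the knockout, and Ascl2, Copg2, Snrpn, Cdkn1c and Igf2 the higher. The difference of H19 (-0.35, SE 0.09) lost its call without replicate 3 of the BAP1 knockout (-0.26).

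Relative to the BAP1 knockout, the imprinted genes were about evenly divided in the double knockout. No untreated line of the double knockout is among the groups, and the labels do not name the line it came from. Loss of RNF2 thus cannot be told apart here from a difference between lines. Against the BAP1 knockout, 14 of 36 members were higher in the double knockout and 15 lower, with 7 not past the test (32.6% and 30.6% of all genes, 63.2% in either direction). The members' median was 0.08, beside 0.03 for all genes. Past 2-fold were 3 members (16.2% of all genes), Dlk1, Mirg and Magel2, all higher. The double knockout and knockout comparisons share the BAP1 knockout libraries, so their values are given side by side. Among members that rose after knockout, Gnas was at 0.98 there and -0.98 in the double knockout, Grb10 at 0.95 and -0.59, Impact at 0.81 and -0.69, and Plagl1 at 1.4 and 0.18. Among those that fell, Slc22a18 was at -1.16 and 0.68, Phlda2 at -0.78 and 0.28, and Zim1 at -1.27 and 0.95. Not every pair of values went opposite ways. Igf2 (0.99 and 0.28), Dlk1 (0.55 and 1.62), H19 (0.19 and 0.63) and Igf2r (0.27 and 0.15) were higher in both comparisons. Peg3 was lower in both, at -0.19 and -0.22. Small calls that single libraries decided were those of Cdkn1c (-0.17, SE 0.06), lost without replicate 2 of the BAP1 knockout (-0.13) or replicate 1 (-0.15) or 3 (-0.16) of the double knockout, and Peg10 (-0.15, SE 0.05), lost without replicate 1 (-0.11) or 3 (-0.13) of the double knockout. Igf2r (0.15, SE 0.05) was lost without replicate 3 of the BAP1 knockout (0.12) or of the double knockout (0.1), and Ndn (0.33, SE 0.11) without replicate 3 of the BAP1 knockout (0.28).

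Against wild type, 15 of 36 members were higher in the double knockout and 12 lower (26.2% and 27.1% of all genes, 53.3% in either direction), and 11 passed 2-fold (9.2% of all genes). Those higher by 2-fold were Nnat (5.41), Nap1l5 (3.18), Magel2 (1.7), Dlk1 (1.66), Plagl1 (1.63) and Mkrn3 (1.2). Those lower were Peg13 (-2.59), H19 (-1.97), Rian (-1.49), Slc38a4 (-1.31) and Phlda2 (-1.01). Here Cdkn1c (0.16, SE 0.06) lost its call without replicate 3 of wild type (0.11) or replicate 2 (0.14) or 3 (0.17) of the double knockout, and Kcnq1ot1 (-0.4, SE 0.14) without replicate 2 of wild type (-0.27) or of the double knockout (-0.3). Slc22a18 (-0.32, SE 0.11) lost it without replicate 1 of wild type (-0.29) or of the double knockout (-0.28).

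**Figure D4:**
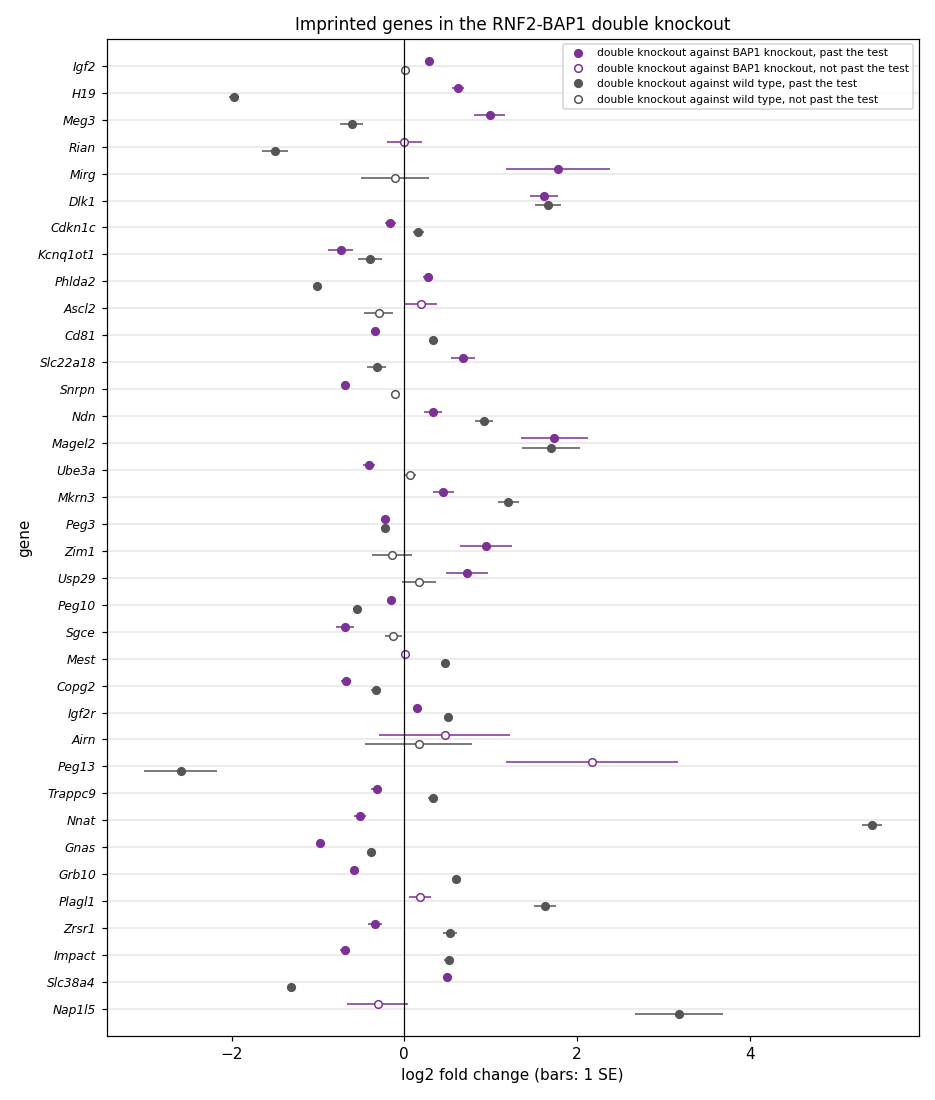
Log2 fold changes with 1 SE for the 36 tested imprinted genes in the double knockout, against the BAP1 knockout (purple) and against wild type (grey), with filled points past the test. Dlk1 and Magel2 lie right of 1 in both comparisons, Gnas lies near -1 against the BAP1 knockout, and Nnat lies beyond 5 against wild type.

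The untreated lines differed in imprinted genes from wild type and from each other. Against wild type, 11 of 36 members were higher in the untreated knockout line and 15 lower (18.5% and 20.8% of all genes, 39.3% in either direction), and 8 passed 2-fold, beside 4.37% of all genes. These 8 were Nnat (4.49) and Nap1l5 (2.49), which were higher, and Peg13 (-3.39), H19 (-2.79), Rian (-1.64), Igf2 (-1.27), Slc38a4 (-1.23) and Mirg (-1.17), which were lower. By the copy usually read, 8 of 20 paternal members were higher and 6 lower, beside 3 and 8 of 15 maternal members. In the untreated C91A line 5 members were higher than in wild type and 6 lower (13.4% and 14.2% of all genes, 27.6% in either direction). The 5 past 2-fold (2.23% of all genes) were Nnat (3.4) and Igf2 (1.32), which were higher, and H19 (-1.51), Sgce (-1.38) and Peg10 (-1.34), which were lower. The 2 comparisons share the wild type libraries.

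Set against each other, the untreated knockout line was above the untreated C91A line for 11 members and below it for 11 (17.3% and 17.6% of all genes, 34.9% in either direction), with 11 past 2-fold beside 4.83% of all genes. Higher in the knockout line by 2-fold were Nap1l5 (2.32), Sgce (1.29) and Nnat (1.09). Lower were Peg13 (-3.13), Igf2 (-2.59), Mirg (-1.75), Rian (-1.53), H19 (-1.28), Ascl2 (-1.18), Slc38a4 (-1.17) and Meg3 (-1.13). Of the calls against wild type, that of Mirg (-1.17, SE 0.44) was lost with DESeq2 (-1.18) and without replicate 2 (-1.02) or 3 (-1.1) of wild type or replicate 2 (-1.05) or 3 (-1.02) of the untreated knockout line. Dlk1 (-0.5, SE 0.18) was lost without replicate 2 of wild type (-0.3) or of the untreated knockout line (-0.42), and Usp29 (-0.56, SE 0.21) without replicate 2 of wild type (-0.36), without replicate 1 (-0.57) or 3 (-0.49) of the untreated knockout line, with DESeq2 (-0.56) or with no filter (-0.55).

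**Figure D5:**
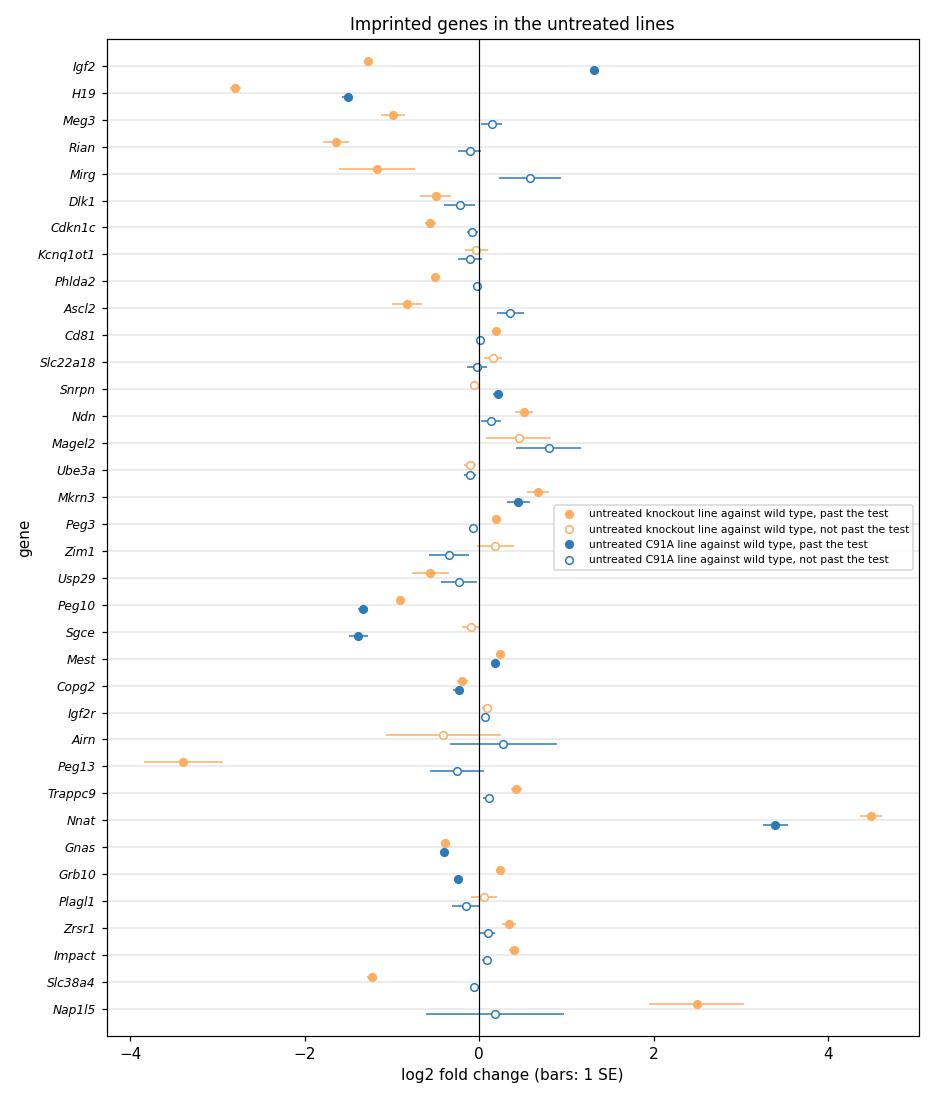
Log2 fold changes with 1 SE for the 36 tested imprinted genes in the untreated knockout line (orange) and the untreated C91A line (blue), each against wild type, with filled points past the test. Nnat lies beyond 3 for both lines, Igf2 lies on opposite sides of 0, and Peg13, Rian and Slc38a4 lie left of -1 for the knockout line alone.

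Beyond the 38 members, 32 further imprinted genes were listed, of which 27 were tested. Of these 8 rose and 5 fell after knockout (29.6% and 18.5%, against 31.3% and 30.3% of all genes), with a median of -0.03. In the C91A mutant 10 rose and 3 fell (37.0% and 11.1%, against 28.6% and 26.4% of all genes), with a median of 0.22. After knockout their share of rises was thus no higher than that of all genes, beside 58.3% for the 36 tested members. The difference between these lists was not tested. In the double knockout 9 were higher and 9 lower than in the BAP1 knockout (33.3% each, against 32.6% and 30.6% of all genes), and 9 higher and 6 lower than in wild type (33.3% and 22.2%, against 26.2% and 27.1%). The untreated knockout line had 2 higher and 5 lower than wild type (7.41% and 18.5%, against 18.5% and 20.8% of all genes) and the untreated C91A line 6 and 4 (22.2% and 14.8%, against 13.4% and 14.2%). The knockout line had 2 above and 8 below the C91A line (7.41% and 29.6%, against 17.3% and 17.6%). Past the test but under a mean log2 CPM of 1 were Dcn, at 2.33 (SE 0.39) after knockout and 2.89 (SE 0.45) in the C91A mutant, and Calcr (1.46, SE 0.39) and Kcnq1 (-1.0, SE 0.39) after knockout. These 3 were named after their values were seen. The 5 genes above that level with the largest changes past the test in either comparison were Ddc, Osbpl5, Snhg14, Sfmbt2 and Begain. Ddc, an enzyme of dopamine synthesis, fell after knockout (-1.76, SE 0.18) and in the C91A mutant (-1.19, SE 0.16), and was 2.11 (SE 0.18) in the double knockout against the BAP1 knockout. Osbpl5, a lipid transfer protein gene, rose after knockout (1.25, SE 0.11) and in the C91A mutant (1.53, SE 0.11). Sfmbt2, a polycomb protein gene, rose by 0.71 (SE 0.07) and 0.72 (SE 0.06) in the same comparisons, and was -0.82 (SE 0.07) in the untreated knockout line and 0.82 (SE 0.06) in the untreated C91A line against wild type. Snhg14, antisense to Ube3a, fell after knockout (-0.75, SE 0.18) and stood at -0.31 (SE 0.17) in the C91A mutant. Begain, a gene near Dlk1, was at -0.33 (SE 0.15) after knockout and 0.53 (SE 0.15) in the C91A mutant, a difference of -0.87 (SE 0.21).

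Genes that keep or erase imprints mostly fell with both alleles. Of 19 such factors 3 rose and 12 fell after knockout, and 2 rose and 12 fell in the C91A mutant, with medians of -0.21 and -0.24 (63.2% fell in each, against 30.3% and 26.4% of all genes). The stem cell markers described above moved with these factors, 8 of 9 falling after knockout and 9 of 9 in the C91A mutant, and their part was not tested. In the double knockout 10 were higher and 4 lower than in the BAP1 knockout (52.6% and 21.1%, against 32.6% and 30.6% of all genes), and 4 higher and 9 lower than in wild type (21.1% and 47.4%, against 26.2% and 27.1%). The untreated knockout line had 5 higher and 7 lower than wild type (26.3% and 36.8%, against 18.5% and 20.8%) and the untreated C91A line 5 and 2 (26.3% and 10.5%, against 13.4% and 14.2%). The knockout line had 2 above and 5 below the C91A line (10.5% and 26.3%, against 17.3% and 17.6%). Zfp57, the zinc finger protein that binds the methylated hexamer above, had 268, 263 and 272 CPM in the double knockout, 109, 110.5 and 111 in the BAP1 knockout and 279, 275 and 276 in the untreated knockout line. Values of Zfp57 were 185, 192 and 194 CPM in the C91A mutant, 284, 293 and 287 in the untreated C91A line and 252, 253 and 275 in wild type. The BAP1 knockout was lowest and the C91A mutant next, and the double knockout overlapped wild type. Zfp57 fell after knockout (log2 fold change -1.33, SE 0.04, adjusted p = 1.9e-26) and less in the C91A mutant (-0.6, SE 0.04, difference -0.73, SE 0.06). Tet1, a dioxygenase that oxidises methylated cytosine, was at -1.18 (SE 0.06) after knockout and -1.03 (SE 0.06) in the C91A mutant, and its relative Tet2 at -0.88 (SE 0.08) and -0.5 (SE 0.08). Dnmt3l, a partner of the DNA methyltransferases, was at -1.03 (SE 0.05) and -0.55 (SE 0.04), and Dppa3, which guards maternal methylation in the early embryo, at -1.14 (SE 0.12) and -0.53 (SE 0.1), so that all 4 fell with both alleles. Against the BAP1 knockout, Zfp57 was 1.28 (SE 0.04) in the double knockout, Tet1 0.96 (SE 0.06), Tet2 1.05 (SE 0.08) and Dnmt3l 1.72 (SE 0.05), while Dppa3, at 0.29 (SE 0.14), did not pass the test.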

How the data were processed

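Per the labels, total RNA was extracted on columns, polyadenylated RNA was made into libraries with a TruSeq kit and single 50-base reads were sequenced. Reads were aligned with GSNAP to GRCm38, per the submitters' processing notes, which give no version, and the sources used here do not say whether counting used strand. The deposited files give, per the file headers, whole-number counts and size-factor-adjusted RPKM for each gene, both made by the authors. RPKM was used only to set levels of different genes side by side.

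From the deposited counts, CPM and log2 fold changes were computed with edgeR 4.0.16 (limma 3.58.1, R 4.3.3) on all 18 libraries, with 1 mean per group, TMM scaling, filterByExpr and the quasi-likelihood test. P-values were adjusted by Benjamini-Hochberg over all 16875 genes at a threshold of 0.05. The SE of a fold change is its size divided by the square root of the F statistic. The fit was also run on simulated data in which far fewer genes changed, in a single group, with a wider spread between libraries. That run thus does not test the calls under the conditions of these data. Replicates of a group differed by 1.77 to 5.78 times the sampling variance, so none was a repeat deposit. Libraries held 8106613 to 23039407 counts. Members found in the RefSeq promoter table by both symbol and identifier numbered 30 of 38, and gene positions are those of GRCm38.

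Values of every library are given for members past the test with a log2 fold change of at least 1 in size in any comparison other than the difference of effects. Other members are given by means or counts, and from the lists of further imprinted genes and of imprint maintenance factors at most 5 genes each are named, those with the largest changes past the test in the knockout or C91A comparison, leaving out genes whose mean log2 CPM is under 1. The members and lists were chosen with earlier results of these data known. Alternatives tried were DESeq2 1.42.0, DESeq2-type scaling, the authors' size factors, no filter, fits of only the groups compared, and omission of each library.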

Additional observations from a re-analysis of the deposited data

Results flagged for a closer look

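For 14 members the effect of BAP1 knockout and that of the C91A mutation, each against its untreated line, differed by edgeR's interaction test over all genes, the criterion for listing them here. Values are the knockout effect minus the C91A effect on the log2 scale, with the p adjusted over all genes by edgeR. The knockout had the higher value in edgeR's fit for Ascl2 (1.0, adjusted p = 0.0038), Copg2 (0.44, adjusted p = 0.00014), Snrpn (0.38, adjusted p = 4.2e-05), Cdkn1c (0.34, adjusted p = 0.004) and Igf2 (0.23, adjusted p = 0.0054). It had the lower value in that edgeR fit for Zim1 (-1.55, adjusted p = 0.0019), Dlk1 (-0.95, adjusted p = 0.0053), Meg3 (-0.92, adjusted p = 0.0015), Slc22a18 (-0.67, adjusted p = 0.0049), Slc38a4 (-0.62, adjusted p = 4e-09), Peg10 (-0.55, adjusted p = 3.2e-07), H19 (-0.35, adjusted p = 0.004), Phlda2 (-0.31, adjusted p = 0.0014) and Peg3 (-0.26, adjusted p = 0.0038). All 14 except H19 kept this call in every fit that left out 1 library. The difference was tested, and no explanation for it was.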

How the results depend on the processing

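No count of members called in a direction moved by over 1.5 times under any alternative. In 4 results that left out 1 library, the members' median fold change reversed sign or moved by at least their median SE. Leaving out each library gave 17 to 21 higher after knockout (21 with all), 21 to 23 in the C91A mutant (23), and 11 to 15 in the double knockout against the BAP1 knockout (14). Changing the scaling, filter, tool or groups fitted gave 20 to 21, 21 to 23 and 13 to 15. Direction reversed in 11 leave-one-out results, none of them past the test. Over the fits that left out 1 library, Kcnq1ot1 ranged from -0.12 to 0.16 and Slc38a4 from -0.017 to 0.11 in the C91A comparison, both below 0 without replicate 1 of the untreated C91A line. Airn ranged from -0.31 to 1.09 in the double knockout against the BAP1 knockout and from -0.61 to 0.75 against wild type, below 0 without replicate 3 of the double knockout, and Igf2 from -0.041 to 0.044 against wild type. In the untreated C91A line against wild type, Kcnq1ot1 ranged from -0.24 to 0.056, Cdkn1c from -0.13 to 0.020 and Plagl1 from -0.26 to 0.025. Between the untreated knockout and C91A lines, Igf2r ranged from -0.050 to 0.073, Copg2 from -0.028 to 0.14 and Kcnq1ot1 from -0.088 to 0.19, all below 0 without replicate 1 of the untreated C91A line. The cause was not tested. Calls not already qualified above that were lost in the fit without 1 library were Copg2 in the untreated knockout line against wild type (-0.15), Mkrn3 in the untreated C91A line (0.39 and 0.38), and Ndn (0.26) and Zrsr1 (0.18 to 0.22) between the untreated lines. Scaling shifted the median of all genes by at most 0.032. No paired analysis was possible because the labels carry no replicate numbers. Depth limits Airn, Mirg, Nap1l5 and Peg13, each with at least 1 group of 15 or fewer summed counts, and no fold is given for Peg13 between the BAP1 knockout and its untreated line.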
